A study of Homo sapiens with 12 samples.

Results

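The genes described are 10 that set whether a cell enters S phase, chosen by symbol from the 60669 Ensembl identifiers counted in each library: the CDK inhibitors CDKN1A, CDKN1B, CDKN1C, CDKN2C and CDKN2D, the D cyclins CCND1, CCND2 and CCND3, and the E cyclins CCNE1 and CCNE2. RNA came from PANC-1, a human pancreatic ductal adenocarcinoma line, 72 h after transfection with an siRNA against the kinase SIK3 (called AS1 in the titles) or with a control siRNA. The cytokine TNF-α, a strong inducer of NF-κB target genes, was added at 100 ng/mL and cells were taken after 30 min or 4 h, beside unstimulated cells. There were 12 libraries, 6 groups of 2 replicates each, and the labels do not say whether replicates were separate cultures.

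Titles and submitters' file names disagree on the condition of 8 of the 12 libraries, in 4 of the 6 groups, and on the siRNA of 4. Both keep the same libraries together, so each group is called here by its file-name words: SIK3 CLM, SIK3 30 min, SIK3 4 h, Scr1 CLM, Scr1 30 min and Scr1 4 h. CLM was read as unstimulated and Scr1 as the control siRNA. By title, SIK3 CLM is the SIK3 siRNA with TNF 30 min, SIK3 30 min is the control siRNA with TNF 4 h and SIK3 4 h is the SIK3 siRNA with TNF 4 h. By title, Scr1 CLM is the unstimulated control siRNA, Scr1 30 min is the unstimulated SIK3 siRNA and Scr1 4 h is the control siRNA with TNF 30 min. The SIK3 mRNA, target of the siRNA, was at 16.3 and 22.4 CPM (TMM-scaled counts relative to the library's total over the genes tested) in SIK3 CLM, 17.3 and 24.0 CPM in SIK3 30 min and 18.3 and 22.8 CPM in SIK3 4 h, replicate 1 then 2. It was at 34.3 and 60.4 CPM in Scr1 CLM, 42.5 and 68.7 CPM in Scr1 30 min and 34.4 and 65.2 CPM in Scr1 4 h. The 6 SIK3-named libraries thus all lay below the 6 Scr1-named ones, and the titles do not separate them so. Averaged over the 3 times, SIK3 was 2.52-fold lower under the SIK3 names (edgeR quasi-likelihood test, Benjamini-Hochberg adjusted p = 0.00052), so the knockdown is partial, and 1 cell line was used.

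Libraries held 13535825 to 22699756 gene counts, and 3 counts, the limit that a count of 0 allows, came to 0.132 to 0.222 CPM (counting error only). For that limit alone, CPM was taken relative to all gene counts, without TMM. Reads that matched no annotated gene were 16.5 to 17.1% in SIK3 4 h and 8.35 to 10.5% in the other 10 libraries. Multimapping reads were 4.94 to 17.6% in replicate 1 libraries and 10.2 to 45.3% in replicate 2 libraries. The ductal keratins KRT8 (2648 to 3541 CPM), KRT18 (1709.7 to 2184 CPM) and KRT19 (717 to 1267 CPM) were high in every library. Of the same ductal list, the keratin KRT7 (5.91 to 11.7 CPM) and MUC1 (0.846 to 9.73 CPM) were low. PTPRC, which marks leukocytes, had 4 counts in all. The summed leukocyte list was at 0.125 to 0.255 CPM under the SIK3 names and 0.211 to 0.768 CPM under the Scr1 names. The summed fibroblast list, mostly COL1A1 (5.10 to 15.4 CPM), was at 7.90 to 16.4 CPM and 6.58 to 10.3 CPM in the same order.

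In G1, D cyclins bind CDK4 and CDK6 and begin to phosphorylate the retinoblastoma protein, which frees E2F factors. E2F raises the E cyclins, which with CDK2 complete the step and start DNA replication. INK4 inhibitors (here CDKN2C, p18, and CDKN2D, p19) block CDK4 and CDK6, and CIP/KIP inhibitors (CDKN1A, p21, CDKN1B, p27, and CDKN1C, p57) block CDK2 complexes. PANC-1 is known for mutant p53, the usual activator of CDKN1A, and for loss of CDKN2A. CDKN2A and the neighbouring CDKN2B had 0 counts in all 12 libraries. In bulk RNA, fewer cells in a phase and less mRNA per cell cannot be told apart.

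Promoters of 4 genes whose mRNA was lower under the SIK3 names are shown, since CDKN2C and CCNE1 are known to respond to E2F and CDKN1A and CDKN1B are the CIP/KIP genes that changed at 4 h. They are RefSeq windows on GRCh38.p14, each from 250 bases before the annotated start to 50 after it, on the gene's own strand. Capitals mark matches to the E2F motif, searched on both strands as TTCCCGC, and in the variant forms with TTCGCGC, with TTGCCGC and with TTGGCGC.
CDKN2C, chr1:50968456-50968755 (plus): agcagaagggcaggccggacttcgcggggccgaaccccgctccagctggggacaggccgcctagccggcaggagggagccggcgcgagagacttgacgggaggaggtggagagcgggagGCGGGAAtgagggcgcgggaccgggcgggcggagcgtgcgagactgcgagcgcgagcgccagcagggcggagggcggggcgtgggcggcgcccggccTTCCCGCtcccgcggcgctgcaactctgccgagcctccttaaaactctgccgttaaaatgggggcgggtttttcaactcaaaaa
CCNE1, chr19:29811741-29812040 (plus): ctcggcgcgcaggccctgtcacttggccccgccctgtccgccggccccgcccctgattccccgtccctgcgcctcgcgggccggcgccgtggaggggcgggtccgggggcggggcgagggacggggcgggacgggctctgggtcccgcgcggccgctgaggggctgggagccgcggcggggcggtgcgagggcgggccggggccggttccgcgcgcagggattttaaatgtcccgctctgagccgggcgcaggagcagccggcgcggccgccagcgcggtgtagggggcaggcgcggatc
CDKN1A, chr6:36678464-36678763 (plus): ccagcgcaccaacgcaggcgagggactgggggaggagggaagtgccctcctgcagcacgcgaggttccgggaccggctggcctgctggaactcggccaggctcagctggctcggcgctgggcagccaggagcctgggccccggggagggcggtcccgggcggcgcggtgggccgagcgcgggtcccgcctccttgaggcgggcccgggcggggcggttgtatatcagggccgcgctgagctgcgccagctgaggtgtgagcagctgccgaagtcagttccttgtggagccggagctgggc
CDKN1B, chr12:12717118-12717417 (plus): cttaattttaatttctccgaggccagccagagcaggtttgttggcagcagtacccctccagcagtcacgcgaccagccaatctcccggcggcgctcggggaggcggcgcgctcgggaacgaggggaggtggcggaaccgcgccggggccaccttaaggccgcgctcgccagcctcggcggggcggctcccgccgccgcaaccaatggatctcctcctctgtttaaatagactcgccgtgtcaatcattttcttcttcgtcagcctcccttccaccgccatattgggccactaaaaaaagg
The CDKN2C window, the second of 3 for this gene, held 2 E2F matches, GCGGGAA at -131 to -125 and TTCCCGC at -34 to -28 from the start, and the other 3 printed windows held none. Over the 10 windows searched, which belong to 6 of the 10 genes, 1 held an E2F match, against 13.0% of the 35116 windows in the table. CDKN1C, CCND1 and CCND2 had no window to search, and CCNE2 was left out. The motif counts of the 10 windows thus do not cover the promoters of CDKN1C, CCND1, CCND2 and CCNE2. The CHR element TTTGAA, known from late cell cycle promoters, was in 0 of these 10 windows and in 15.2% of all windows, and the GC box GGGCGG in 8 of 10 and in 45.0% of all. Among 36 windows of the mitosis list below, 66.7% held TTTGAA and 30.6% an E2F match. Among 36 windows of the DNA replication list, 63.9% held an E2F match and 5.56% TTTGAA. A match is a run of letters, not a shown binding site.

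On GRCh38 with GENCODE 29, CDKN1A (ENSG00000124762) spans chromosome 6, 36676460 to 36687339, plus strand. CDKN1B (ENSG00000111276) spans chromosome 12, 12715058 to 12722371, plus, and CDKN1C (ENSG00000129757) chromosome 11, 2883213 to 2885773, minus. CDKN2C (ENSG00000123080) spans chromosome 1, 50960745 to 50974633, plus, and CDKN2D (ENSG00000129355) chromosome 19, 10566462 to 10569059, minus. The D cyclin genes are CCND1 (ENSG00000110092, chromosome 11, 69641087 to 69654474, plus), CCND2 (ENSG00000118971, chromosome 12, 4273772 to 4305350, plus) and CCND3 (ENSG00000112576, chromosome 6, 41934933 to 42050357, minus). The E cyclin genes are CCNE1 (ENSG00000105173, chromosome 19, 29811898 to 29824308, plus) and CCNE2 (ENSG00000175305, chromosome 8, 94879770 to 94896678, minus).

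**Figure D1:**
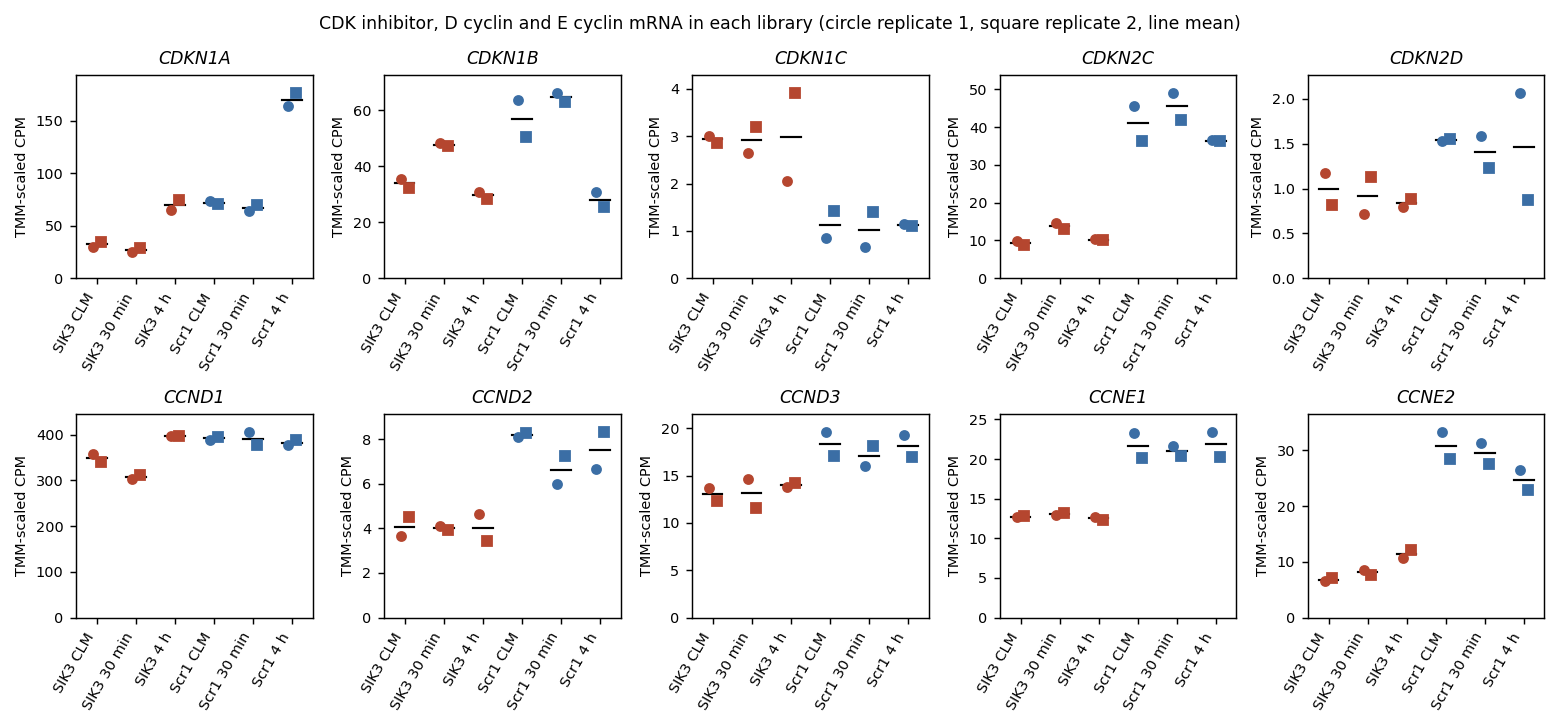
TMM-scaled CPM (y axis, from 0) of each of the 10 genes in the 6 conditions by file name (x axis), with circles for replicate 1, squares for replicate 2 and a line at the mean. SIK3-named libraries lay below all Scr1-named ones for CDKN2C, CCND2, CCND3, CCNE1 and CCNE2, and above them for CDKN1C. How many of all genes separate in this way was not counted. Of all genes tested, 59.2% had an adjusted p under 0.05 in the mean of the 3 times.

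What the SIK3 siRNA does to these genes is asked, by file name, by 3 pairs of groups at equal times, which share no library. Inhibitors and cyclins went down together: averaged over the 3 times, 9 of the 10 genes were lower under the SIK3 names and CDKN1C was higher. CDKN2C fell 3.71-fold, CCNE2 3.29-fold, CDKN1A 2.37-fold, CCND2 1.83-fold and CCNE1 1.69-fold, and CDKN1C rose 2.71-fold. CCND1 was within 1.11-fold. All 10 passed, where 59.2% of the 16695 genes tested passed in either direction, and 9 were lower, where 29% of all genes tested were lower. The median of the 10 was −0.72 on the log2 scale, and that of all genes 0.02; library totals in place of TMM moved the median of all genes to 0.11.

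By time, 8 of the 10 passed in SIK3 CLM against Scr1 CLM (7 lower), where 38.6% of all genes tested passed and 19.8% were lower. In SIK3 30 min against Scr1 30 min 8 passed (7 lower), where 37.8% of all passed and 19.6% were lower. In SIK3 4 h against Scr1 4 h 6 passed (5 lower), where 39.5% of all passed and 19.9% were lower. The median of the 10 was −0.76, −0.65 and −0.82 at the 3 times, and that of all genes 0.01, −0.01 and 0.03. CDKN1A, CDKN1C, CDKN2C, CCND2, CCNE1 and CCNE2 passed at all 3 times. How many of all genes tested passed at all 3 times was not counted, so no share stands beside these genes.

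**Figure D2:**
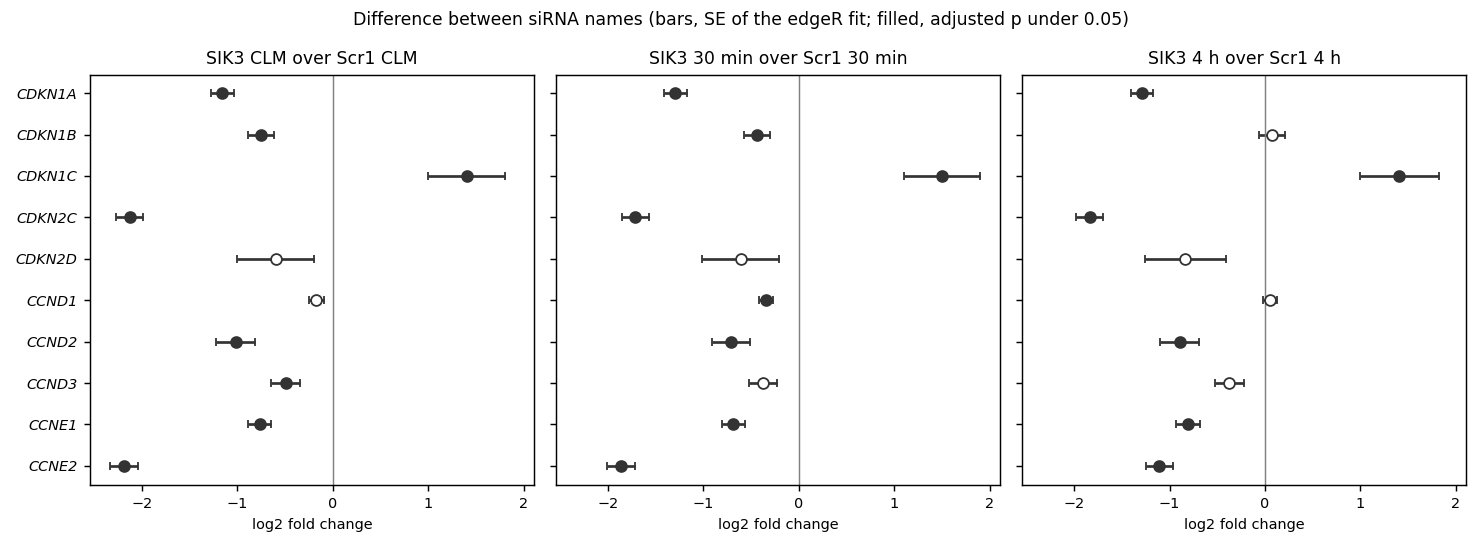
log2 fold change (x axis, SIK3-named over Scr1-named libraries) of the 10 genes at the 3 times by file name, n = 2 libraries per group, with the SE of the edgeR fit. Filled points have an adjusted p under 0.05; CDKN2C, CCNE2 and CDKN1A lie left of −1 in all 3 panels and CDKN1C right of 1.

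CDKN2C, the INK4 inhibitor p18, had the largest fall of the 10 averaged over the times. It was at 9.99 and 8.71 CPM in SIK3 CLM, 14.7 and 13.1 CPM in SIK3 30 min and 10.4 and 10.03 CPM in SIK3 4 h. In Scr1 CLM it was at 45.6 and 36.4 CPM, in Scr1 30 min at 49.0 and 41.9 CPM and in Scr1 4 h at 36.6 and 36.3 CPM. The highest SIK3-named library stood well under the lowest Scr1-named one. Scr1 CLM overlapped both Scr1 30 min and Scr1 4 h, which did not overlap each other. The log2 difference was −2.13 ± 0.15 in the CLM pair (SE, edgeR quasi-likelihood, adjusted p = 5.11e-06), −1.71 ± 0.14 at 30 min (adjusted p = 1.67e-05) and −1.84 ± 0.15 at 4 h (adjusted p = 1.8e-05). CDKN2D, p19, was scarce, with 11 to 34 counts per library, at 0.713 to 1.17 CPM under the SIK3 names and 0.870 to 2.06 CPM under the Scr1 names. The 2 ranges overlapped, and CDKN2D did not pass at any single time (log2 differences −0.60, −0.61 and −0.83), though without Scr1 4 h replicate 2 it passed at 4 h (−1.29, edgeR quasi-likelihood, adjusted p = 0.0306). Averaged over the times it was 1.60-fold lower (adjusted p = 0.0313). That call was lost with library totals (adjusted p = 0.0537), with DESeq2's Wald test (0.0579), and without any 1 of 8 libraries (0.054 to 0.131). These were Scr1 CLM replicates 1 and 2, replicate 1 of Scr1 30 min, Scr1 4 h and SIK3 30 min, SIK3 CLM replicate 2 and SIK3 4 h replicates 1 and 2.

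CDKN1A encodes p21, the inhibitor that p53 and many stress signals induce. It was at 29.8 and 34.9 CPM in SIK3 CLM, 25.3 and 28.9 CPM in SIK3 30 min and 64.6 and 74.2 CPM in SIK3 4 h. Scr1 CLM held 73.5 and 70.5 CPM, Scr1 30 min 63.6 and 69.7 CPM and Scr1 4 h 163.5 and 176.1 CPM. At each time the SIK3-named libraries were lower with no overlap, yet SIK3 4 h overlapped Scr1 CLM and Scr1 30 min. The log2 difference was −1.16 ± 0.12 in the CLM pair (edgeR quasi-likelihood, adjusted p = 6.17e-05), −1.30 ± 0.12 at 30 min (3.23e-05) and −1.29 ± 0.12 at 4 h (3.78e-05).

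CDKN1B, p27, which holds CDK2 in check in resting cells, depended on the time. It was at 35.5 and 32.2 CPM in SIK3 CLM, 48.1 and 47.1 CPM in SIK3 30 min and 30.9 and 28.2 CPM in SIK3 4 h. Scr1 CLM held 63.4 and 50.4 CPM, Scr1 30 min 66.1 and 62.9 CPM and Scr1 4 h 30.8 and 25.3 CPM. The pairs did not overlap in CLM and at 30 min, and overlapped at 4 h. The log2 difference was −0.75 ± 0.14 in the CLM pair (edgeR quasi-likelihood, adjusted p = 0.00193), −0.44 ± 0.13 at 30 min (0.0283) and 0.07 ± 0.14 at 4 h (0.723). At 30 min the call was lost with library totals (adjusted p = 0.0857) and without any 1 of its 4 libraries, replicates 1 and 2 of SIK3 30 min and of Scr1 30 min (0.0913 to 0.138).

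CDKN1C, p57, an imprinted inhibitor, was the gene of the 10 that rose. It was at 3.01 and 2.86 CPM in SIK3 CLM, 2.65 and 3.19 CPM in SIK3 30 min and 2.06 and 3.91 CPM in SIK3 4 h. In Scr1 CLM it held 0.846 and 1.41 CPM, in Scr1 30 min 0.658 and 1.39 CPM and in Scr1 4 h 1.15 and 1.11 CPM. All 6 SIK3-named libraries lay above all 6 Scr1-named ones, on 12 to 72 counts per library. The log2 difference was 1.40 ± 0.40 in the CLM pair (edgeR quasi-likelihood, adjusted p = 0.0209), 1.50 ± 0.40 at 30 min (0.0148), 1.41 ± 0.41 at 4 h (0.0222) and 1.44 ± 0.23 over the 3 times (0.000479). The single-time calls were fragile. In CLM the call was lost without Scr1 CLM replicate 1 (adjusted p = 0.141), SIK3 CLM replicate 1 (0.0775) or replicate 2 (0.0555). At 30 min it was lost without Scr1 30 min replicate 1 (0.0965) or SIK3 30 min replicate 2 (0.0602), and at 4 h without Scr1 4 h replicate 1 (0.092) or 2 (0.0846) or SIK3 4 h replicate 2 (0.194). The call over the 3 times held in all 19 alternatives run (adjusted p up to 0.00195).

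CCND1, cyclin D1, a target of growth factor signalling, was the most abundant of the 10 per exon length, with a median of 72.2 CPM per kb under the SIK3 names and 80.5 CPM per kb under the Scr1 names. It was at 357.8 and 340.02 CPM in SIK3 CLM, 304.03 and 312.3 CPM in SIK3 30 min and 398.1 and 397.4 CPM in SIK3 4 h. In Scr1 CLM it held 389.6 and 395.8 CPM, in Scr1 30 min 405.3 and 377.1 CPM and in Scr1 4 h 377.5 and 387.8 CPM. SIK3 4 h had the highest mean and SIK3 30 min the lowest. Scr1 30 min overlapped both Scr1 CLM and Scr1 4 h, which did not overlap each other. The log2 difference was −0.17 ± 0.07 in the CLM pair (edgeR quasi-likelihood, adjusted p = 0.101, and 0.00645 with the replicate number as a block), −0.34 ± 0.07 at 30 min (0.00519) and 0.06 ± 0.07 at 4 h (0.595). At 30 min the call was lost without Scr1 30 min replicate 1 (adjusted p = 0.0763) or SIK3 30 min replicate 1 (0.0555) or 2 (0.0512). The difference over the 3 times, −0.15 ± 0.04 (0.0119), was −0.06 with library totals (0.234), and its call was also lost with no filter (0.0732) and without Scr1 30 min replicate 1 (0.0566). CCND1 exons overlap those of LTO1 on the other strand, and LTO1 was higher under the SIK3 names by 0.53 on the log2 scale (adjusted p = 5e-05). The strand setting of the counting is not stated, and the part of LTO1 reads in CCND1 counts was not tested.

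CCND2 and CCND3, the other D cyclins, were lower under the SIK3 names in the mean of the 3 times. CCND2 ranged from 3.42 to 4.65 CPM (median 4.02) in SIK3-named libraries and from 5.98 to 8.30 CPM (median 7.66) in Scr1-named ones. Its log2 difference was −1.02 ± 0.20 in the CLM pair (edgeR quasi-likelihood, adjusted p = 0.00299), −0.71 ± 0.20 at 30 min (0.0184) and −0.89 ± 0.20 at 4 h (0.00674). At 30 min the call was lost without Scr1 30 min replicate 2 (adjusted p = 0.167) or SIK3 30 min replicate 1 (0.0765) or 2 (0.117), and at 4 h without SIK3 4 h replicate 2 (0.0601). CCND3 ranged from 11.6 to 14.7 CPM (median 13.7) in SIK3-named libraries and from 16.02 to 19.6 CPM (median 17.6) in Scr1-named ones. Its log2 difference was −0.49 ± 0.15 in the CLM pair (adjusted p = 0.027), −0.38 ± 0.15 at 30 min (0.0758, with the block 0.00657, without SIK3 30 min replicate 1 0.0459) and −0.37 ± 0.15 at 4 h (0.0776, with the block 0.011). The CLM call was lost with library totals (adjusted p = 0.0631) and without any 1 of its 4 libraries, replicates 1 and 2 of SIK3 CLM and of Scr1 CLM (0.0573 to 0.171). Per exon length, CCND1 made up 95.3 to 96.6% of D cyclin mRNA in SIK3-named libraries and 94.7 to 95.9% in Scr1-named ones. The mean was 1.04 percentage points higher under the SIK3 names (exact permutation test over libraries, 2-sided, p = 0.00433, 4 of 924 splits). That test ignores time and replicate number. Within the 6 pairs of libraries of equal time and replicate number, 5 were higher under the SIK3 names and the 30 min pair of replicate 1 lower (95.3 against 95.9%), and exact sign flips, added after seeing the data, gave p = 0.0625 (4 of 64), so the difference does not pass once the pairing is kept.

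The E cyclins differed in size of change. CCNE1 was at 12.7 and 12.8 CPM in SIK3 CLM, 12.9 and 13.1 CPM in SIK3 30 min and 12.7 and 12.3 CPM in SIK3 4 h. In Scr1 CLM it was at 23.3 and 20.1 CPM, in Scr1 30 min at 21.6 and 20.4 CPM and in Scr1 4 h at 23.4 and 20.3 CPM. It was steady over the times under either name, with log2 differences between the siRNA names of −0.77 ± 0.12 (edgeR quasi-likelihood, adjusted p = 0.000831), −0.69 ± 0.12 (0.00155) and −0.81 ± 0.12 (0.000683). CCNE2 was at 6.52 and 7.07 CPM in SIK3 CLM, 8.50 and 7.70 CPM in SIK3 30 min and 10.8 and 12.1 CPM in SIK3 4 h. In Scr1 CLM it was at 33.3 and 28.5 CPM, in Scr1 30 min at 31.4 and 27.6 CPM and in Scr1 4 h at 26.4 and 22.9 CPM. Its gap was widest in the CLM pair and narrowest at 4 h, with log2 differences of −2.19 ± 0.15 (4.57e-06), −1.86 ± 0.14 (1.07e-05) and −1.11 ± 0.14 (0.000244). Per exon length, CCNE2 made up 23.6 ± 0.958, 26.5 ± 1.59 and 34.6 ± 2.35% of E cyclin mRNA in SIK3 CLM, SIK3 30 min and SIK3 4 h (SD, n = 2 each). It made up 45.2 ± 0.130, 44.8 ± 1.25 and 39.6 ± 0.0219% in Scr1 CLM, Scr1 30 min and Scr1 4 h. CCNE2 exons overlap those of INTS8 on the other strand, and INTS8 was at 125.4 to 157.5 CPM under the SIK3 names and 105.3 to 134.2 CPM under the Scr1 names, ranges that overlap, with a log2 difference of 0.21 over the times (adjusted p = 0.0293), and the part of INTS8 reads in CCNE2 counts was not tested.

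**Figure D3:**
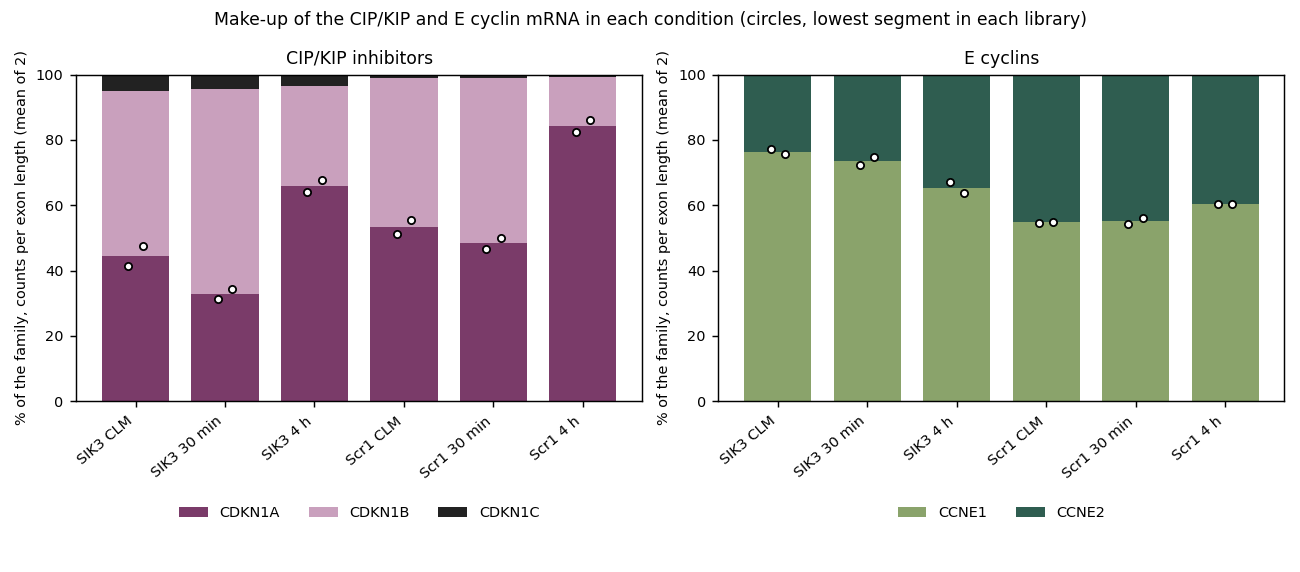
Share of CIP/KIP inhibitor mRNA (left) and of E cyclin mRNA (right) held by each gene in the 6 conditions by file name, in % of counts divided by exon length. Bars are means of 2 libraries and circles give the lowest segment in each library: CDKN1A took 84.2% of CIP/KIP mRNA in Scr1 4 h and 32.9% in SIK3 30 min.

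How TNF-α changes these genes is asked by the time groups under each name. At 30 min no call was made among the 10: 0 in SIK3 30 min against SIK3 CLM, where 0.15% of all genes tested passed, and 0 in Scr1 30 min against Scr1 CLM, where 0.294% passed. With the replicate number as a block, which lets each replicate have its own baseline, 2 passed in the SIK3-named pair, where 3.37% of all genes passed with the block. CDKN1B was at 0.49 ± 0.14 in log2 terms (adjusted p = 0.616 by edgeR, with the block 0.000547) and CDKN2C at 0.56 ± 0.15 (0.522, with the block 0.00294). Both were higher in both replicates. The difference between the names at 30 min passed for 0 of the 10 and for 0% of all genes by edgeR's quasi-likelihood test (317 genes had an unadjusted p under 0.05; by adjusted p, DESeq2's Wald test called 6 genes and the block 44).

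At 4 h CDKN1A rose under both names. It was 2.15-fold higher in SIK3 4 h than in SIK3 CLM (log2 1.10 ± 0.12, edgeR quasi-likelihood, adjusted p = 0.00109) and 2.36-fold higher in Scr1 4 h than in Scr1 CLM (1.24 ± 0.12, 0.000136). The difference of these log2 changes was −0.13 ± 0.17 (adjusted p = 0.938), so a smaller or larger rise under the SIK3 names was not detected. In SIK3 4 h against SIK3 CLM 2 of the 10 passed, CDKN1A and CCNE2, where 4.42% of all genes passed. In Scr1 4 h against Scr1 CLM 2 passed, CDKN1A and CDKN1B, where 8.99% of all passed (923 genes higher and 578 lower, and with library totals 820 and 825).

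CDKN1B was 2.03-fold lower in Scr1 4 h than in Scr1 CLM (log2 −1.02 ± 0.14, edgeR quasi-likelihood, adjusted p = 0.00126) and at −0.20 ± 0.14 in SIK3 4 h against SIK3 CLM (0.568). The difference of the changes, 0.82 ± 0.19, did not pass (adjusted p = 0.0857) but passed with the replicate block (4.73e-05), with no filter (0.0243) and with DESeq2's Wald test (0.0437). CDKN1B thus fell in Scr1 4 h to the level of SIK3 4 h, and these 2 groups were the lowest of the 6.

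CCNE2 was 1.69-fold higher in SIK3 4 h than in SIK3 CLM (log2 0.75 ± 0.15, edgeR quasi-likelihood, adjusted p = 0.0187) and at −0.32 ± 0.14 in Scr1 4 h against Scr1 CLM (0.226, with the block 0.0185). The difference of the changes was 1.08 ± 0.20 (adjusted p = 0.0322), the 1 call among the 10, where 1.56% of all genes tested passed. With the block 3 of the 10 passed, where 12% of all genes passed: CCNE2, CDKN1B and CCND1 (0.23 ± 0.11, 0.0428 with the block and 0.485 without). The CCNE2 rise in SIK3 4 h lost its call without any 1 of the 4 libraries of SIK3 4 h and SIK3 CLM (adjusted p = 0.0574 to 0.148). The difference lost it without any 1 of these and of the 4 libraries of Scr1 4 h and Scr1 CLM (0.0643 to 0.142). CCND1 was at 0.19 ± 0.07 in SIK3 4 h against SIK3 CLM (adjusted p = 0.232, with the block 0.0098). SIK3 4 h is the group with the high share of reads in no gene, and the part of this in the CCNE2 and CCND1 values was not tested. INTS8 stood at −0.02 in SIK3 4 h against SIK3 CLM (adjusted p = 0.975).

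**Figure D4:**
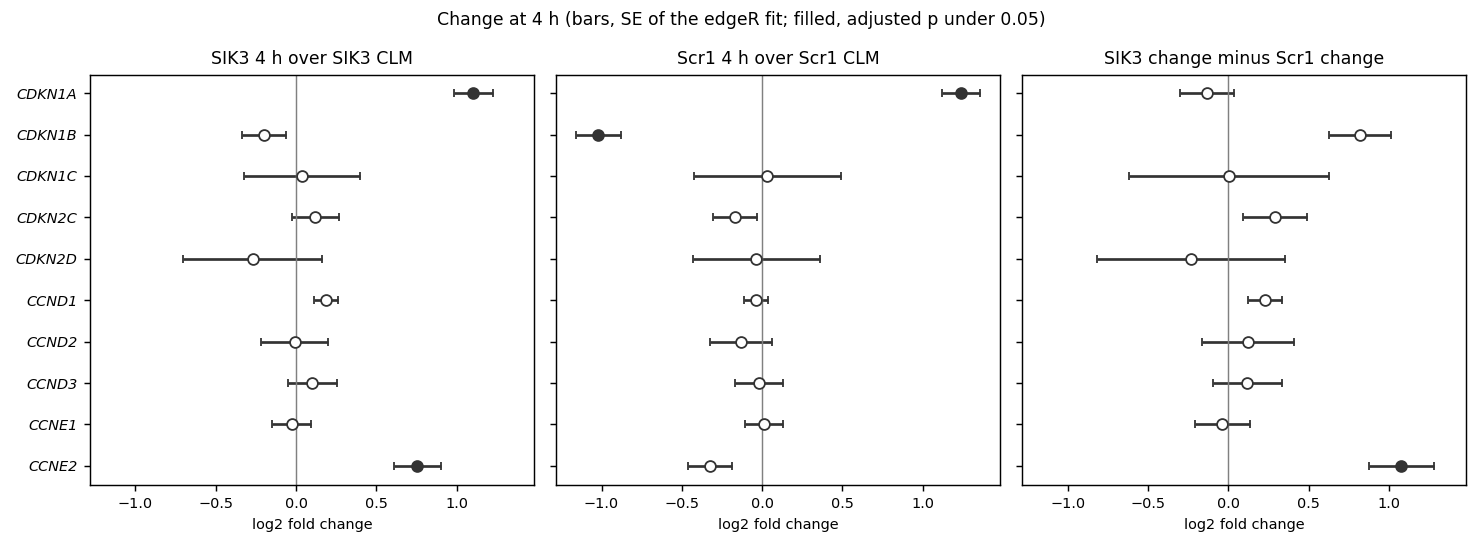
log2 fold change at 4 h (x axis) of the 10 genes in SIK3-named libraries (left), in Scr1-named libraries (middle) and the difference of these changes (right), with the SE of the edgeR fit, n = 2 libraries per group. Filled points have an adjusted p under 0.05: CDKN1A is right of 1 under both names, CDKN1B falls only in the middle panel by this test, and CCNE2 alone is filled in the right panel.

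Within the CIP/KIP family, the mRNA per exon length shifted toward CDKN1A at 4 h under both names. CDKN1A held 44.5 ± 4.41, 32.9 ± 2.25 and 65.9 ± 2.50% of it in SIK3 CLM, SIK3 30 min and SIK3 4 h (SD, n = 2 each), and 53.4 ± 3.02, 48.3 ± 2.25 and 84.2 ± 2.49% in Scr1 CLM, Scr1 30 min and Scr1 4 h. CDKN1C held 4.97 ± 0.244, 4.36 ± 0.450 and 3.46 ± 1.33% in the SIK3-named conditions, and 1.05 ± 0.456, 0.911 ± 0.447 and 0.690 ± 0.0359% in the Scr1-named ones. CDKN1B held most of the rest.

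Genes of cell division were far lower under the SIK3 names. Averaged over the times, 29 of 29 DNA replication genes fell (median −1.57 on the log2 scale, all genes 0.02), and so did 36 of 36 mitosis genes (median −2.11). Of all genes tested 29% were lower. Among replication genes, the helicase subunit MCM4 was at −1.66 ± 0.05 (edgeR quasi-likelihood, adjusted p = 8.53e-09), the helicase partner GINS1 at −2.05 ± 0.06 and the ribonucleotide reductase subunit RRM2 at −2.01 ± 0.07. Among mitosis genes, TOP2A, which untangles DNA, was at −3.53 ± 0.06 (9.91e-10), CEP55 of the final cut between daughter cells at −3.51 ± 0.06 and the checkpoint kinase BUB1 at −2.55 ± 0.05. The summed level of the mitosis list was 1422 to 2362 CPM in SIK3-named libraries and 7267 to 8264 CPM in Scr1-named ones, and that of the replication list 648.5 to 954.3 CPM against 2157 to 2423 CPM. Of the inhibitors, CDKN1A and CDKN2C were lower and CDKN1C was higher at all 3 times at which the division genes were lower. CDKN1B was lower in CLM and at 30 min and was not called at 4 h (log2 difference 0.07), and CDKN2D was called, with all libraries kept, only in the mean of the times.

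In CLM 29 replication genes and 34 mitosis genes were lower (medians −1.75 and −2.40), at 30 min 29 and 35 (−1.71 and −2.24) and at 4 h 29 and 31 (−1.36 and −1.66). Of all genes tested 19.8, 19.6 and 19.9% were lower in these pairs. At 4 h against CLM under the SIK3 names, 9 of 29 replication genes rose (median 0.45, with the block 24) and 19 of 36 mitosis genes rose (median 0.61, with the block 35). Under the Scr1 names 0 replication genes passed (with the block 3 rose) and 2 mitosis genes fell (with the block 12 fell and 2 rose). Of all genes tested, 4.42% passed in SIK3 4 h and 8.99% in Scr1 4 h, and with the block 21.8% and 23.5%. The difference of the 4 h changes passed upward for 2 replication genes (15 with the block) and 12 mitosis genes (34 with the block). Of all genes tested 0.719% passed upward for that difference and 1.56% in either direction, and with the block 12% in either direction. CCNE2 was called upward both in SIK3 4 h and in that difference. Reads in no gene were at their highest in SIK3 4 h, and their part in these list counts was not tested.

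**Figure D5:**
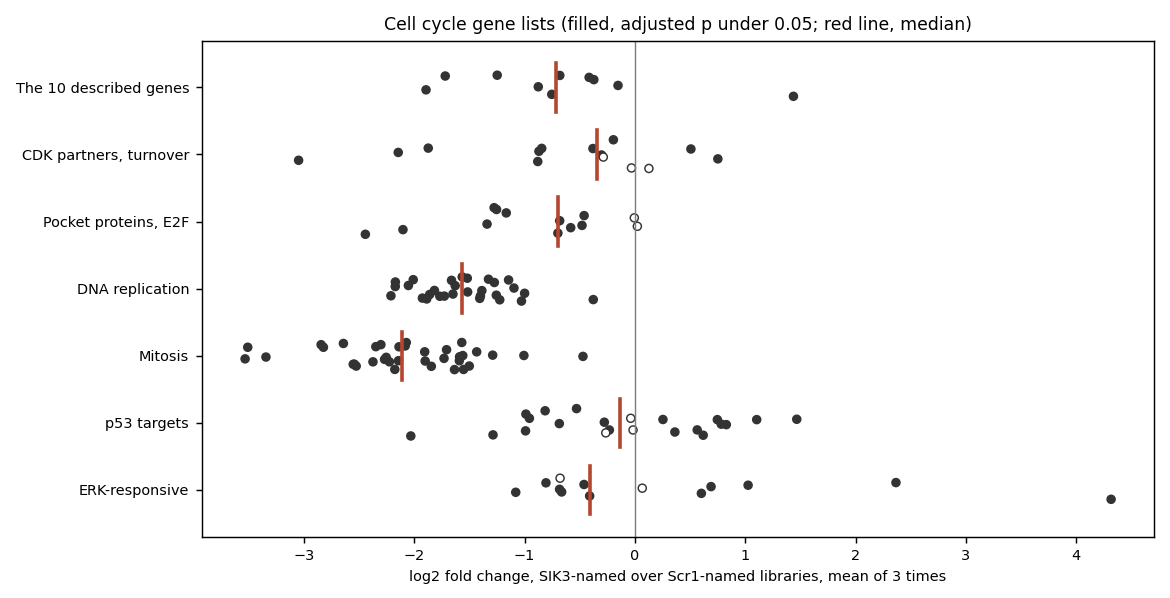
log2 fold change (x axis, SIK3-named over Scr1-named libraries, mean of 3 times) of the 10 genes and of the tested genes of 6 lists, with a red line at each median and filled points for an adjusted p under 0.05. All 29 replication and 36 mitosis genes lie left of 0, with medians of −1.57 and −2.11, while p53 targets lie on both sides.

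The partners of these 10 genes were described by 2 lists. Averaged over the times, 29% of all genes tested were lower and 30.2% higher. Among CDK partners and turnover factors, 14 of 16 could be tested (CDKN2A and CDKN2B had no counts), and averaged over the times 9 were lower and 2 higher (median −0.34). SKP2, the ubiquitin ligase subunit that marks p27 protein for destruction, was 8.27-fold lower (log2 −3.05 ± 0.07, edgeR quasi-likelihood, adjusted p = 2.81e-09). CDK6, the D cyclin kinase, was 4.42-fold lower, CDC25A, a phosphatase that activates CDK2, 3.66-fold, and CDK2 itself 1.83-fold. Among retinoblastoma family and E2F genes 11 of 13 were lower (median −0.70), with the activator E2F1 4.29-fold lower, the repressor E2F7 5.44-fold and the pocket protein RBL1 2.53-fold. At 4 h under the SIK3 names CDK6 rose by 0.78 ± 0.14 (adjusted p = 0.0120) and CDC25A by 0.65 ± 0.15 (0.0353). CDKN3, a phosphatase that acts on CDK2, fell by 0.55 ± 0.13 under the Scr1 names (0.0298), and its difference of changes was 0.94 ± 0.18 (0.0376).

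CDKN1A was set beside 23 other p53 targets, of which 22 could be tested. Averaged over the times 10 were lower and 9 higher under the SIK3 names (median −0.13), so they did not move one way. Of all genes tested 29% were lower and 30.2% higher. MDM2, the ligase that limits p53, was 1.99-fold lower (edgeR quasi-likelihood, adjusted p = 3.66e-07), the death receptor FAS 1.98-fold lower and CCNG1, a cyclin, 4.09-fold lower, while the stress gene GADD45A was 1.68-fold higher. At 4 h 6 p53 targets rose and 0 fell in SIK3 4 h (with the block 8 rose and 2 fell), where 3.65% of all genes tested rose. In Scr1 4 h 7 rose and 0 fell (with the block 9 rose and 3 fell), where 5.53% of all rose. BBC3, which promotes cell death, rose 3.71-fold in SIK3 4 h (adjusted p = 0.00113) and 5.84-fold in Scr1 4 h (5.23e-05). FAS rose 1.59-fold in SIK3 4 h and 3.58-fold in Scr1 4 h, a difference of −1.17 ± 0.14 (0.00531). All 9 NF-κB response genes rose at 4 h under both names (medians 1.53 in SIK3 4 h and 2.54 in Scr1 4 h). CCND1 was set beside 13 ERK-responsive genes. Averaged over the times 6 of them were lower and 5 higher (median −0.41), where 29% of all genes tested were lower and 30.2% higher. DUSP5 was 5.15-fold higher, SPRY2 2.04-fold higher and DUSP6 1.60-fold lower, all of them feedback inhibitors of the ERK pathway.

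Read by title instead, the same libraries give other pairs. The summed NF-κB response genes were at 2929 and 2710 CPM in Scr1 CLM and 3216 and 3154 CPM in Scr1 30 min, both titled unstimulated. They were at 11320 and 10396 CPM in Scr1 4 h and 2342 and 2123 CPM in SIK3 CLM, both titled TNF 30 min. In SIK3 30 min and SIK3 4 h, both titled TNF 4 h, they were at 2053 and 1998 CPM and at 6064 and 6519 CPM. Of the 9 genes, 3 were called higher and 1 lower in Scr1 30 min against Scr1 CLM (with the block 3 and 2). NFKBIA rose 2.95-fold, TNFAIP3 4.06-fold and CXCL8 3.74-fold, and TRAF1 fell 1.83-fold (edgeR quasi-likelihood, adjusted p = 0.000349 to 0.0206). In SIK3 30 min against SIK3 CLM 2 were higher and 1 lower (with the block 3 and 5). Of all genes tested 0.294% and 0.15% passed in these pairs. Which labels hold was not tested. The SIK3 siRNA against the control siRNA is then Scr1 30 min against Scr1 CLM when unstimulated, with 0 of the 10 called and SIK3 mRNA at 0.23 ± 0.37 in log2 terms. With TNF 30 min it is SIK3 CLM against Scr1 4 h, with 7 called (CDKN1C higher; CDKN1A, CDKN2C, CCND2, CCND3, CCNE1 and CCNE2 lower), where 42.5% of all genes passed (3452 higher and 3644 lower, and with library totals 4364 and 2909). There SIK3 mRNA was at −1.37 ± 0.38 in log2 terms (adjusted p = 0.0165 by edgeR) and CDKN1A at −2.39 ± 0.12 (8.26e-07). CDKN1B was at 0.27 ± 0.14 (0.148, with the block 0.0101, and 0.41 with library totals, 0.043). CCND1 was at −0.13 ± 0.07 there (0.183, with the block 0.0282), and at 0.012 with library totals. In it CCND3 lost its call with library totals, with no filter and without Scr1 4 h replicate 1 or SIK3 CLM replicate 1 or 2 (adjusted p = 0.0519 to 0.159). CCND2 lost it without SIK3 CLM replicate 1 (0.0583), and CDKN1C without any 1 of the 4 libraries (0.0557 to 0.0914). With TNF 4 h it is SIK3 4 h against SIK3 30 min, with 3 called, CDKN1A and CCND1 higher and CDKN1B lower, where 7.08% of all passed. In this pair SIK3 mRNA was at −0.008 ± 0.38 (adjusted p = 0.997 by edgeR), so a lower level under the title's SIK3 siRNA was not detected. CDKN1A was at 1.36 ± 0.12 (adjusted p = 0.000286), CCND1 at 0.37 ± 0.07 (0.0174) and CDKN1B at −0.69 ± 0.14 (0.0161). With the block CCNE2 (0.50 ± 0.14, 0.00391) and CDKN2C (−0.44 ± 0.15, 0.00393) passed too, so 5 of the 10, where 27.8% of all genes passed with the block. Without any 1 of the 4 libraries, replicates 1 and 2 of SIK3 4 h and of SIK3 30 min, the calls of CDKN1B (0.051 to 0.136) and CCND1 (0.0938 to 0.153) were lost, and CCND1 also with no filter (0.0949).

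Ordered by mean level, CDKN1A ran from Scr1 4 h (169.8 ± 8.92 CPM, SD, n = 2) over Scr1 CLM, SIK3 4 h and Scr1 30 min, neighbours that overlapped, to SIK3 CLM and SIK3 30 min. CDKN1B ran from Scr1 30 min and Scr1 CLM, which overlapped, over SIK3 30 min and SIK3 CLM to SIK3 4 h and Scr1 4 h, which overlapped. For CCND2, CCND3 and CDKN2D the 3 Scr1-named conditions overlapped as neighbours at the top and the 3 SIK3-named ones at the bottom. For CDKN1C the SIK3-named conditions overlapped at the top and the Scr1-named ones at the bottom. For CCNE1 and CDKN2C the Scr1-named conditions overlapped as neighbours, and the SIK3-named ones below them did not overlap, though CCNE1 spanned 12.3 to 13.1 CPM there. CCNE2 had no overlap from Scr1 30 min down.

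As a description over the 6 condition means of log2(CPM + 0.1), among 9125 genes at a mean of at least 10 CPM, the genes most like each of the 10 were found by Pearson's r. The 6 points share their libraries. CDKN1A was most like SLFN11, KHNYN and PIEZO1 (r 1.00, 0.998 and 0.997), CDKN1B like AC118549.1, PTPN4 and SMIM3 (0.993, 0.987 and 0.985) and CDKN1C like HMGN4, SELENON and CD59 (0.999 each). CDKN2C was most like SLC33A1, SYF2 and EBP (0.999, 0.999 and 0.998) and CDKN2D like MRPS23, STAMBP and ENTPD7 (0.998, 0.996 and 0.996). CCND1 was most like SEMA4B, SON and CAPN15 (0.991, 0.991 and 0.980), CCND2 like TIGD6, TADA2A and SLC35E2B (0.997, 0.997 and 0.996) and CCND3 like DSG2, JPT1 and TRAPPC12 (0.999, 0.999 and 0.998). CCNE1 was most like TMEM165, USP40 and FYTTD1 (1.00, 0.999 and 0.999). CCNE2 was most like BARD1, CDC20 and ARHGEF39 (1.00 each), of which CDC20 is in the mitosis list.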

How the data were processed

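RNA from PANC-1 cells was sequenced in 12 libraries. The authors deposited counts of reads per gene, whole numbers, and STAR 2.05b, edgeR and GRCh38 are named in the submitters' processing notes. The strand setting and the annotation behind the counts are not given in the sources used here; column 2 of each table was used. Symbols and exon lengths came from GENCODE 29. Of 60669 identifiers 3742 had no symbol, and 4 summary entries (unmapped, multimapping, no feature, ambiguous) stayed out of the totals. Groups follow the titles and are named by file name.

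The tool was edgeR 4.0.16 in R 4.3.3. Genes passed filterByExpr (minimum count 10, 16695 kept), counts were scaled by TMM, and 1 quasi-likelihood fit took all 12 libraries in 6 groups without a block (6 residual degrees of freedom). Each comparison was adjusted over all genes tested by Benjamini-Hochberg at 0.05, and p-values measure the spread between 2 samples a group, which may be technical. The replicate numbers pair the libraries: deviations from the group mean correlated between same-numbered libraries in 15 of 15 pairs of groups (0.350 to 0.530, median 0.421), so block values stand beside calls of the 10 genes that they change and beside list counts that they move by over 1.5 times. Alternatives were scaling by library totals or by size factors of DESeq2 1.42.0, its Wald test, voom in limma 3.58.1, no filter, a filter of CPM 1 or more in 4 libraries or more, and each library left out. On simulated data for the CLM pair, 67 genes were changed 1.5-fold, 67 2-fold and 66 4-fold among 16695, and recovery was 4.48, 41.8 and 89.4%. For the 4 h interaction, with the same numbers changed, it was 0, 14.9 and 74.2%. The real CLM pair had 6449 genes called, far more than were changed in the simulation. Adjustment over all genes is stricter when few change, so the CLM recovery is not the recovery in the real pair. The text names all 10 genes, SIK3, CDKN2A and CDKN2B, up to 4 called genes a list with the smallest p, and the 3 genes most like each of the 10; marker and overlapping genes are named outside that rule. The genes and lists were chosen with earlier results of these data known. Figures were drawn in Python 3.11.15.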

Additional observations from a re-analysis of the deposited data

Results flagged for a closer look

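The change of CCNE2, cyclin E2, at 4 h differed between the siRNA names. It was 0.75 ± 0.15 on the log2 scale in SIK3 4 h against SIK3 CLM and −0.32 ± 0.14 in Scr1 4 h against Scr1 CLM, and the interaction term was 1.08 ± 0.20 (edgeR quasi-likelihood, adjusted p = 0.0322). CCNE2 was higher at 4 h in both SIK3-named replicates and lower in both Scr1-named ones. By title, the same libraries are the SIK3 siRNA with TNF 4 h and 30 min, and the control siRNA with TNF 30 min and unstimulated. The call was lost without any 1 of the 8 libraries (adjusted p 0.0643 to 0.142) and held with each of the other 7 alternatives (up to 0.0404).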

How the results depend on the processing

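The alternatives gave 848 values for the 68 results of single genes among the 10 that were picked for reporting. Of these values 759 kept their direction and their side of the threshold, 69 lost a call, 18 gained one and 2 turned round. Results of the 10 genes that were not picked are not in this count. CDKN1B in SIK3 4 h against Scr1 4 h turned to −0.062 without Scr1 4 h replicate 2 (range −0.062 to 0.22 over libraries left out), and CCND1 in SIK3 CLM against Scr1 4 h to 0.012 with library totals, neither of them called; the cause was not tested. With the replicate block, all genes called were 9746 in SIK3 CLM against Scr1 CLM, 9771 in SIK3 30 min against Scr1 30 min, 464 in Scr1 30 min and 3928 in Scr1 4 h against Scr1 CLM, 563 in SIK3 30 min and 3642 in SIK3 4 h against SIK3 CLM, 4646 in SIK3 4 h against SIK3 30 min, and 44 and 1996 for the interactions at 30 min and 4 h. The block called 2 of the 10 genes in SIK3 30 min against SIK3 CLM, 3 for the 4 h interaction and 5 in SIK3 4 h against SIK3 30 min. With no filter, genes called were 101 in Scr1 30 min, 90 in SIK3 30 min and 1109 in SIK3 4 h, each against its CLM group, and 18 and 505 for the interactions. With DESeq2's Wald test they were 85 in Scr1 30 min, 57 in SIK3 30 min and 6 for the 30 min interaction; 2 of the 10 genes passed the 4 h interaction by either (all genes 505 and 390). Leaving out 1 library, which leaves 1 sample that is assumed to vary like the other groups, gave 21 to 28 genes in Scr1 30 min, 867 to 932 in Scr1 4 h, 6 to 12 in SIK3 30 min, 225 to 304 in SIK3 4 h, 60 to 115 for the 4 h interaction and 428 to 535 in SIK3 4 h against SIK3 30 min. Of the 10 genes it called 4 to 6 in SIK3 30 min against Scr1 30 min (all genes 4641 to 5064), 1 in SIK3 4 h against SIK3 CLM, 0 for the 4 h interaction, 4 to 6 in SIK3 CLM against Scr1 4 h (all genes 5604 to 5816) and 1 in SIK3 4 h against SIK3 30 min. The CCND1 share difference held on counts (1.35 points); with exact sign flips within pairs (a replicate block, added after seeing the data) it stayed at 1.04 points with p = 0.0625, and its call was lost. Low counts limit CDKN1C and CDKN2D.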
